A study of Mus musculus with 6 samples.

Results

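The 10 genes described here are core genes of the integrated stress response and the unfolded protein response, chosen by symbol from the gene table: Atf4, Ddit3, Trib3, Chac1, Asns, Eif2ak3, Atf6, Xbp1, Hspa5 and Hsp90b1. They occupied 11 rows of the 55492 genes listed, since Ddit3 had a second, short row that was listed at 0 in all 6 samples. Each was followed in O4+ cells from 3 wild-type (WT) and 3 Npc1-/- mice at postnatal day 16, with 1 bulk poly(A) RNA-seq library per mouse and no treatment in either group. Npc1-/- mice carry the Npc1 nih allele on both chromosomes and lack functional NPC1, a protein that moves cholesterol out of late endosomes and lysosomes. WT and Npc1-/- mice were littermates on a mixed BALB/cJ and C57BL6/J background, so the comparison asked whether loss of NPC1 in every cell of the animal changed these genes in late oligodendrocyte progenitors and young oligodendrocytes. O4 is a surface antigen of those cells, and they were pulled from dissociated brain with magnetic microbeads and flash frozen.

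Cells that accumulate unfolded proteins in the endoplasmic reticulum (ER) sense them through PERK, IRE1 and ATF6, and the output is a set of chaperones, folding enzymes and degradation factors. PERK is also one of the kinases of the integrated stress response, which phosphorylates the initiation factor eIF2, lowers general protein synthesis and favours translation of the transcription factor ATF4. Oligodendrocytes are known for a heavy secretory load, since they make large amounts of myelin membrane, and disorders of eIF2B, the exchange factor of eIF2, are white matter diseases. Both responses are controlled largely after transcription, by phosphorylation, splicing of Xbp1 mRNA, cleavage of ATF6 and translation of Atf4 mRNA, none of which gene-level RNA values can report.

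Both arms act on promoters through short DNA elements, and matches to some of them are shown here. The groups followed below were set by the role of each gene, not by these matches. The first lines give the ER stress response element, bound by ATF6 with NF-Y, in capitals. It is built from CCAAT and CCACG with a fixed spacer between them. It was found in the RefSeq promoter windows (GRCm38.p6) of Hspa5 and Hsp90b1 and of Pdia6, a folding enzyme outside the 10 genes. Pdia6 also followed Hspa5 across the samples, but some other genes with the element did not, as given below. Hsp90b1 held it at 2 positions, the second in reverse.
Hspa5, chr2:34771995-34772073, plus strand: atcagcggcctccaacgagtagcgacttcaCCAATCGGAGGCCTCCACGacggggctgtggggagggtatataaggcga
Hsp90b1, chr10:86705503-86705686, minus strand: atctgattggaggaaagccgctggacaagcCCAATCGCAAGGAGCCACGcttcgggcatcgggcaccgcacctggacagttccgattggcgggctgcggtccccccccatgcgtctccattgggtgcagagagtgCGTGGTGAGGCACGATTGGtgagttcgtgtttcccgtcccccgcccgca
Pdia6, chr12:17266461-17266539, plus strand: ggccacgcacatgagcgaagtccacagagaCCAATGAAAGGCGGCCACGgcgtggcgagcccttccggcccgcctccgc
The next lines give the C/EBP-ATF composite site, TGATGNAA on either strand, at which ATF4 and CHOP can bind with C/EBP partners, again in capitals.
Chac1, chr2:119351019-119351086, plus strand: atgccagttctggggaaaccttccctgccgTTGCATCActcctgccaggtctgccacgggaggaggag
Asns, chr6:7693210-7693262, minus strand: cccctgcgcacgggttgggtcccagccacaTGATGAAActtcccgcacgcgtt

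RefSeq windows were matched by symbol for 9 of the 10 genes, all but Atf6. The ER stress response element occurred in 2 of the 9 and in 0.119% of all 32851 windows, starting at base -65 of the Hspa5 promoter and at -212 and -107 of the Hsp90b1 promoter relative to the RefSeq start. The composite site occurred in 3 of the 9, Chac1, Asns and Trib3, and in 3.97% of all windows. Its first base lay at -193 in Chac1, -23 in Asns and 14 in Trib3. Neither the second form of the ER stress response element nor the unfolded protein response element (TGACGTGG) was found in the 9 windows, and they occurred in 0.0365% and 0.676% of all windows. These are exact matches of letters on both strands, not measured binding. Only a short window around each RefSeq start was searched, so a site further away or with a changed base would be missed.

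Values are TPM (length-normalised transcript abundance) as deposited, divided by a size factor per library and called scaled TPM here. Npc1 itself (chr18:12189692-12236400, minus strand), the gene altered in the mutant, measured 41.1, 45.5 and 43.9 scaled TPM in WT and 3.72, 5.17 and 4.35 in Npc1-/- samples, so the levels followed the labels in 6 of 6 libraries. Depth, estimated from the steps of low values, was 40500000 to 50500000 fragments per library. Myelin basic protein mRNA (Mbp) alone made up 18.8% to 26.1% of all TPM, and the other oligodendrocyte markers were also present in every library. Npc1-/- replicate 3 stood apart: it had the smallest size factor (0.727, against 0.855 to 1.295 in the others), the largest Mbp share, and the X-inactivation transcript Xist at 21.4 scaled TPM, against at most 0.0096 in the other 5. Results are therefore also given without that library. Summed markers of several non-oligodendrocyte cell types did not overlap between genotypes. The summed level of 6 microglial markers was 180 to 281 scaled TPM in WT and 83.1 to 153 in Npc1-/- samples, that of 4 endothelial markers 412 to 598 and 292 to 352, and that of 4 pericyte markers 328 to 487 and 198 to 250. The sum of 5 neuronal markers lay the other way by a narrow margin, at 76.2 to 110 in WT and 112 to 143 in Npc1-/- samples. Taken singly, each of the 5 neuronal markers overlapped between genotypes. The sum of 5 astrocyte markers overlapped, at 267 to 337 in WT and 231 to 409 in Npc1-/- samples.

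No stress response gene that could be tested passed the threshold between WT and Npc1-/- cells. Of the 10, 8 passed the filter on low values (mean TPM of at least 0.5), and 0 of these 8 were called by limma (adjusted p below 0.05, log2 fold change beyond 0.1 either way), against 0.813% of all 15245 genes tested (0.4% higher and 0.413% lower in Npc1-/- cells). At an unadjusted p below 0.05, 1 of the 8 remained, Ddit3, against 22.2% of all genes. The estimates were positive for 2 genes and negative for 6, and their median log2 fold change was -0.06, beside 0.01 over all genes. Leaving out any one library, Npc1-/- replicate 3 included, also gave 0 calls among the 8. Without Npc1-/- replicate 3, the log2 fold changes were 0.34 for Ddit3, 0.23 for Eif2ak3, -0.12 for Atf6, -0.21 for Xbp1, -0.12 for Hspa5 and -0.04 for Hsp90b1, with Atf4 and Asns within 0.01 of 0. With 3 mice per genotype an exact permutation test of a single gene cannot go below p = 0.1, which is why the moderated test across all genes was used.

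**Figure D1:**
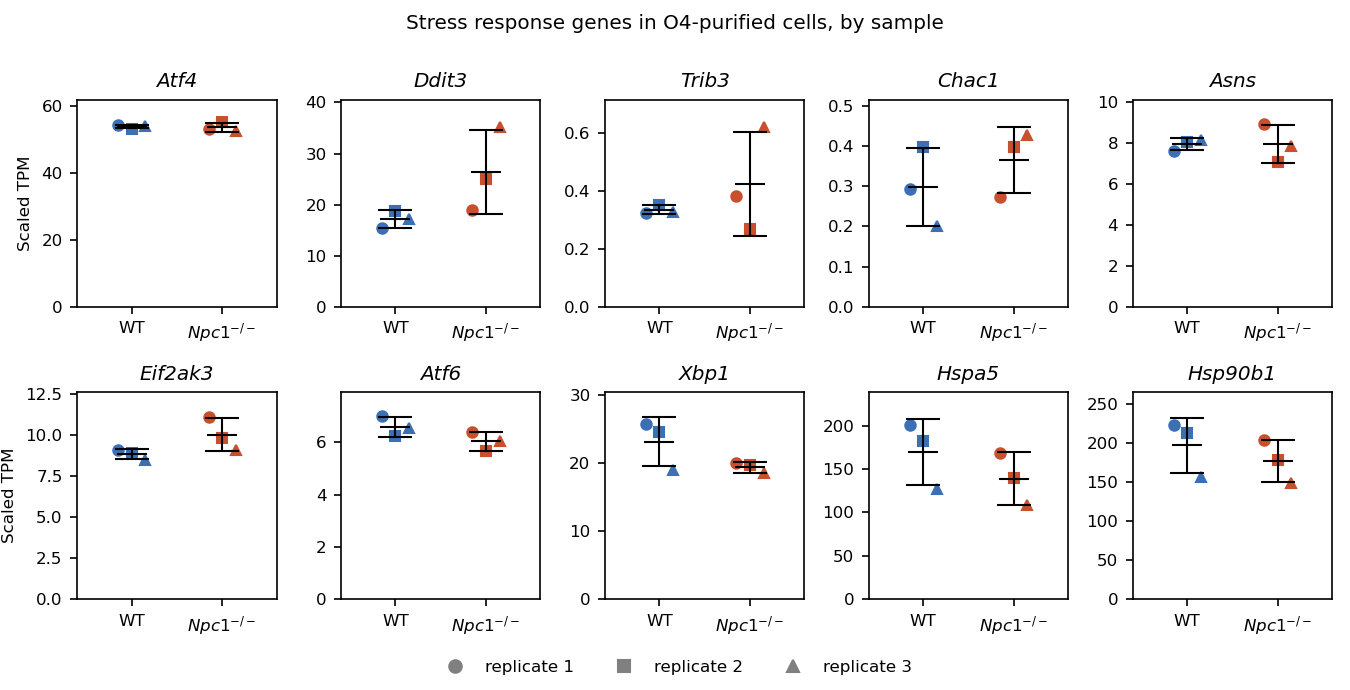
Scaled TPM (y axes, linear from 0) of the 10 genes in each of 3 WT (blue) and 3 Npc1-/- (red) samples, with the mean and SD in black and the replicate number given by the marker. Ddit3 is the gene whose Npc1-/- samples (19.0 to 35.2) all lie above the WT samples (15.4 to 18.8), while Atf4 lies between 52.6 and 55.1 in all 6.

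The chaperones led the order of levels in both genotypes, and the most inducible ATF4 targets came last. On the TPM scale, which is per transcript length, Hsp90b1 (197 ± 35.3, SD, n = 3) and Hspa5 (170 ± 38.0) were highest in WT cells. Their values overlapped between mice, but Hsp90b1 lay above Hspa5 in every library of both genotypes. Atf4 (53.9 ± 0.58) came next, then Xbp1 (23.2 ± 3.63) and Ddit3 (17.2 ± 1.73). Eif2ak3 (8.84 ± 0.32), Asns (7.92 ± 0.29) and Atf6 (6.60 ± 0.38) followed, and Trib3 (0.335 ± 0.015) and Chac1 (0.298 ± 0.098) were near the limit of detection, with overlapping values. In Npc1-/- cells the order was the same except that the mean of Ddit3 (26.4 ± 8.17) lay above that of Xbp1 (19.5 ± 0.82), although Npc1-/- replicate 1 had 19.0 for Ddit3 and 20.1 for Xbp1.

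Atf4 (ENSMUSG00000042406, chr15:80255184-80257541) encodes the transcription factor at the centre of the integrated stress response. It measured 54.3, 53.2 and 54.1 scaled TPM in WT and 53.1, 55.1 and 52.6 in Npc1-/- samples. The groups overlapped and no library stood out. The log2 fold change was -0.01 (SE 0.07, 95% interval -0.18 to 0.16, limma adjusted p = 0.963). Atf4 activity depends mainly on translation of its mRNA, which was not measured.

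The downstream targets did not move as a group. Ddit3 (ENSMUSG00000025408, chr10:127290774-127296288), which encodes CHOP, the transcription factor linked to death after prolonged ER stress, measured 15.4, 18.8 and 17.3 scaled TPM in WT and 19.0, 25.1 and 35.2 in Npc1-/- samples. All Npc1-/- values lay above all WT values, by a narrow margin for replicate 1, and the highest was that of Npc1-/- replicate 3. Ddit3 had a log2 fold change of 0.57 (SE 0.21, 95% interval 0.07 to 1.07), or 1.48-fold. Its p was 0.0302 by limma, 0.174 after adjustment over all genes, and 0.1 by the exact two-sided permutation test, the smallest that 20 arrangements allow. By comparison, 27.5% of all genes had groups that did not overlap, 13.3% with Npc1-/- above and 14.2% with it below. Without Npc1-/- replicate 3 the log2 fold change was 0.34 (limma adjusted p = 0.254).

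The higher Ddit3 values ran beside other differences between libraries. Mbp took 18.8%, 22.2% and 20.96% of TPM in the WT samples and 20.2%, 24.7% and 26.1% in the Npc1-/- samples, so that the library with the most Ddit3 also had the most Mbp. Removing a smooth curve on transcript length from each sample lowered the log2 fold change to 0.43, the longest Ddit3 transcript being 969 bases, the shortest of the 10 genes. Ddit3 also overlaps Mars, which encodes methionyl-tRNA synthetase, and Gm4189 on the opposite strand, and the sources used here do not state whether reads were counted by strand. The Mars row measured 22.1, 21.5 and 16.7 scaled TPM in WT and 21.5, 25.6 and 17.4 in Npc1-/- samples. The part of library composition, transcript length and overlapping genes in the Ddit3 difference was not tested.

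Asns (ENSMUSG00000029752, chr6:7675169-7693254) encodes asparagine synthetase, a standard ATF4 target whose promoter held the composite site printed above. It measured 7.60, 8.03 and 8.15 scaled TPM in WT and 8.91, 7.07 and 7.84 in Npc1-/- samples. The groups overlapped, with the highest and the lowest value both in Npc1-/- libraries. Asns had a log2 fold change of -0.002 (SE 0.11, 95% interval -0.26 to 0.26, limma adjusted p = 0.996).

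Trib3 (ENSMUSG00000032715, chr2:152337422-152344032), a pseudokinase induced by ATF4 and CHOP, and Chac1 (ENSMUSG00000027313, chr2:119351229-119354381), which degrades glutathione, are among the most inducible genes of the pathway. Trib3 measured 0.324, 0.352 and 0.327 scaled TPM in WT and 0.381, 0.269 and 0.619 in Npc1-/- samples. Chac1 measured 0.293, 0.398 and 0.202 in WT and 0.272, 0.398 and 0.427 in Npc1-/- samples. Both genes overlapped between genotypes, and the highest value of each was in Npc1-/- replicate 3. Their means (0.375 and 0.33 TPM before scaling) were under the filter, so neither entered the test. For Chac1, which has a single annotated transcript, the values came to about 9 to 17 fragments per library, so that only large changes were detectable at this depth. With no filter, the log2 fold changes were 0.13 for Trib3 and 0.12 for Chac1 (limma adjusted p = 0.760 and 0.736).

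**Figure D2:**
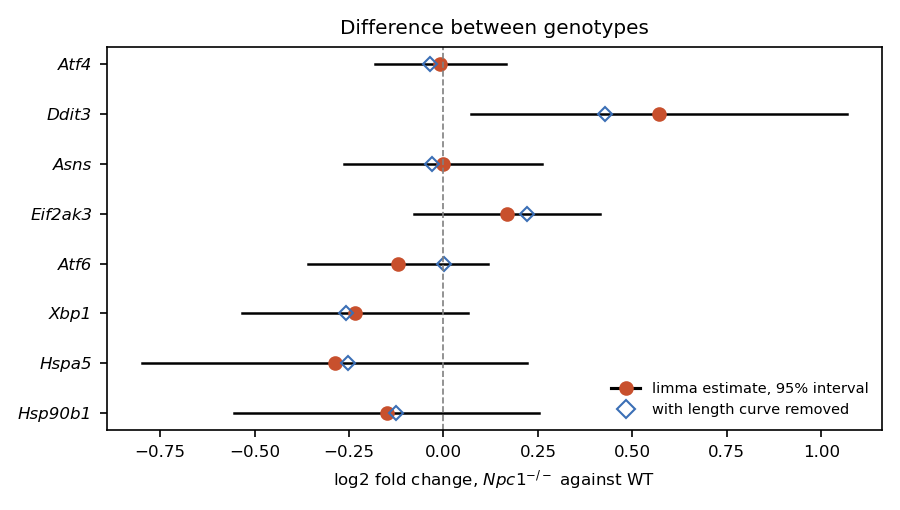
Log2 fold change (x axis, Npc1-/- against WT) of the 8 genes tested, with the limma estimate (circle), its 95% interval (line) and the estimate after removing a curve on transcript length (diamond). The interval of Ddit3 (0.07 to 1.07) is the one that does not reach 0, and the intervals of Atf4 (-0.18 to 0.16) and Asns (-0.26 to 0.26) are centred near 0.

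The ER stress sensors and their factors showed small differences in both directions. Eif2ak3 (ENSMUSG00000031668, chr6:70844515-70905245) encodes PERK, the ER-resident eIF2 kinase. It measured 9.10, 8.93 and 8.48 scaled TPM in WT and 11.1, 9.85 and 9.10 in Npc1-/- samples. The lowest Npc1-/- value fell just short of the highest WT value, so the groups overlapped narrowly. The estimate was a log2 fold change of 0.17 (SE 0.10, 95% interval -0.08 to 0.41, limma adjusted p = 0.403). It was -0.18 in TPM as deposited, a scale on which the median of all genes was -0.33, so the gene lay above that median on both scales.

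Atf6 (ENSMUSG00000026663, chr1:170704674-170867771), the sensor whose cleaved fragment is itself the transcription factor, measured 7.01, 6.26 and 6.54 scaled TPM in WT and 6.39, 5.68 and 6.04 in Npc1-/- samples. Its groups overlapped, and the estimate of -0.12 (SE 0.10, 95% interval -0.36 to 0.12, limma adjusted p = 0.547) became 0.00072 after removal of the length curve, so no direction can be given. Xbp1 (ENSMUSG00000020484, chr11:5520659-5525893), whose mRNA is spliced by IRE1 to make an active transcription factor, measured 25.8, 24.7 and 19.0 scaled TPM in WT and 20.1, 19.7 and 18.5 in Npc1-/- samples. WT replicate 3 lay with the Npc1-/- samples rather than with the other WT samples. The log2 fold change of Xbp1 was -0.24 (SE 0.13, 95% interval -0.53 to 0.06, limma adjusted p = 0.333), and the spliced and unspliced forms share a row in the table.

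The ER chaperones were high in all libraries, and their values overlapped between genotypes. Hspa5 (ENSMUSG00000026864, chr2:34771970-34777547) encodes BiP, the main HSP70 of the ER, which also holds the sensors inactive. It measured 200.8, 182.0 and 127.6 scaled TPM in WT and 168.9, 140.1 and 108.1 in Npc1-/- samples. The range within WT alone was wider than the distance between the group means. At each replicate number the Npc1-/- value lay below the WT value, but no label says that the numbers pair mice. The log2 fold change was -0.29 (SE 0.22, 95% interval -0.80 to 0.22, limma adjusted p = 0.493), and it ranged from -0.48 without WT replicate 3 to -0.12 without Npc1-/- replicate 3.

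Hsp90b1 (ENSMUSG00000020048, chr10:86690209-86705509) encodes GRP94, the HSP90 of the ER. It measured 222, 212 and 157 scaled TPM in WT and 203, 178 and 149 in Npc1-/- samples. As for Hspa5, the library numbered 3 was the lowest in each genotype and the groups overlapped. Each Npc1-/- value again lay below the WT value of the same number. Hsp90b1 had a log2 fold change of -0.15 (SE 0.17, 95% interval -0.55 to 0.25, limma adjusted p = 0.667), and it ranged from -0.31 without WT replicate 3 to -0.04 without Npc1-/- replicate 3.

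**Figure D3:**
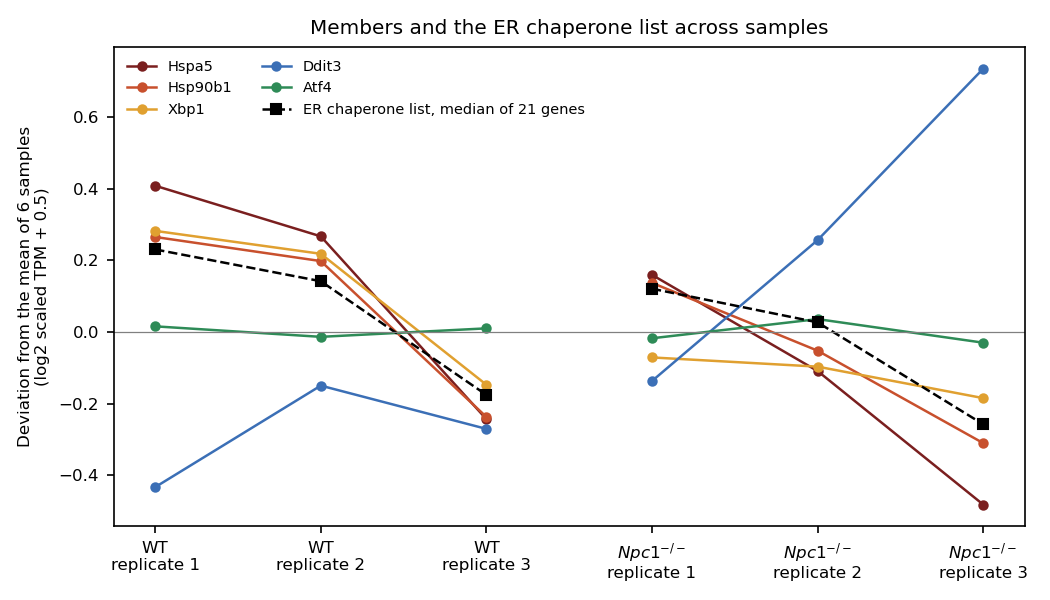
Deviation of log2(scaled TPM + 0.5) from the mean of the 6 samples (y axis) for 5 of the genes and for the median of the 21-gene ER chaperone list (black squares), by sample (x axis). Lines only join the points of 1 gene within a genotype. Hspa5, Hsp90b1, Xbp1 and the list median are lowest in the third library of each genotype, Atf4 stays near 0, and Ddit3 is highest in Npc1-/- replicate 3.

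Several chaperone genes shared this pattern over the libraries. The trait counted here was not set in advance. It is that of Hspa5 and Hsp90b1, so counting those genes adds no separate support. The library numbered 3 was the lowest of its genotype in both genotypes for 4 of the 8 genes tested, Xbp1, Hspa5, Hsp90b1 and Eif2ak3, against 18.7% of all genes. In a list of 21 further ER chaperones and foldases it was so for 14 (66.7%). The trait was not confined to ER chaperones. It held for 12 of 22 ER-associated degradation and translocon genes (54.5%). It also held for 4 of 8 mitochondrial chaperones and proteases and 5 of 12 aminoacyl-tRNA synthetases (41.7%). It was rare in cytosolic heat shock genes (1 of 11) and early response genes (0 of 12). Over all pathway lists given below it held for 47 of 142 tested genes (33.1%). The median deviation of the ER chaperone list from the 6-sample mean, on the log2 scale, was 0.23, 0.14 and -0.18 in WT and 0.12, 0.03 and -0.26 in Npc1-/- samples. Among the 9150 genes whose mean TPM reached 5, those nearest to Hspa5 by root-mean-square difference of centred log2 values over the 6 samples were Pdia4 (0.0588), Hyou1 (0.0625) and Pdia6 (0.0716), a pair of disulfide isomerases and an ER HSP70-like chaperone. Manf, Creld2, Pdia3 and Hsp90b1 ranked 5, 8, 13 and 14, so that 6 of the 20 ranked list genes, besides Hsp90b1, were among the nearest 20. Xbp1 ranked 204 and Ddit3 8645 of 9149.

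Pdia4, the gene nearest to Hspa5, measured 46.8, 40.7 and 27.0 scaled TPM in WT and 37.9, 31.7 and 26.1 in Npc1-/- samples. Pdia6, with the element printed above, measured 100.03, 90.0 and 59.5 in WT and 91.2, 75.2 and 54.8 in Npc1-/- samples. Pdia4, Pdia6 and Hyou1 were picked for likeness to Hspa5 over the same samples, so sharing its pattern follows from that choice. Both Pdia4 and Pdia6 were lowest in the third library of each genotype. Their log2 fold changes were -0.23 and -0.17 (limma adjusted p = 0.595 and 0.740), and that of Hyou1 was -0.25 (adjusted p = 0.514). With any one library left out they lay between -0.46 and -0.07 for Pdia4, -0.39 and 0.0236 for Pdia6, and -0.42 and -0.0995 for Hyou1. The library numbered 3 was also the lowest of its genotype for summed oligodendrocyte progenitor markers (626, 717 and 545 scaled TPM in WT, 730, 605 and 381 in Npc1-/- samples) and the highest for summed oligodendrocyte markers. Gpr17 and Mbp make up most of these sums. Among the progenitor markers only Gpr17 was lowest there in both genotypes. In the Npc1-/- samples all 4 progenitor markers were lowest in replicate 3. In WT, Pdgfra and Bmp4 were lowest in replicate 1 and Cspg4 in replicate 2. The oligodendrocyte markers Mag and Olig2 were lowest in the third library of each genotype. The part of these cell types in the chaperone pattern was not tested. In bulk RNA, fewer cells of a type and less RNA per cell cannot be told apart. The genes nearest to Atf4 were Wdr47 (0.0199), Fam192a (0.0208) and Trappc1 (0.0219). Their log2 fold changes were -0.02, -0.01 and 0.02 (limma adjusted p = 0.942, 0.953 and 0.891). They were picked for closeness to Atf4 over the same samples, so fold changes near 0 follow from that choice.

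The other genes of the pathways were read from 11 lists of 145 genes, of which 142 were tested. Again 0 were called by limma, against 0.813% of all genes. At an unadjusted p below 0.05, 9 were higher and 14 lower in Npc1-/- cells, beside 10.6% and 11.6% of all genes. The median log2 fold change over the lists was -0.05. Without Npc1-/- replicate 3, 5 of 141 list genes were called, all lower, among them Slc7a5 (-1.26), Pycr1 (-1.14), Hspb1 (-1.37) and Btg2 (-0.90). The same fit called 486 of all 15362 genes tested, 377 of them lower, so the list genes were called at a rate near that of all genes.

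**Figure D4:**
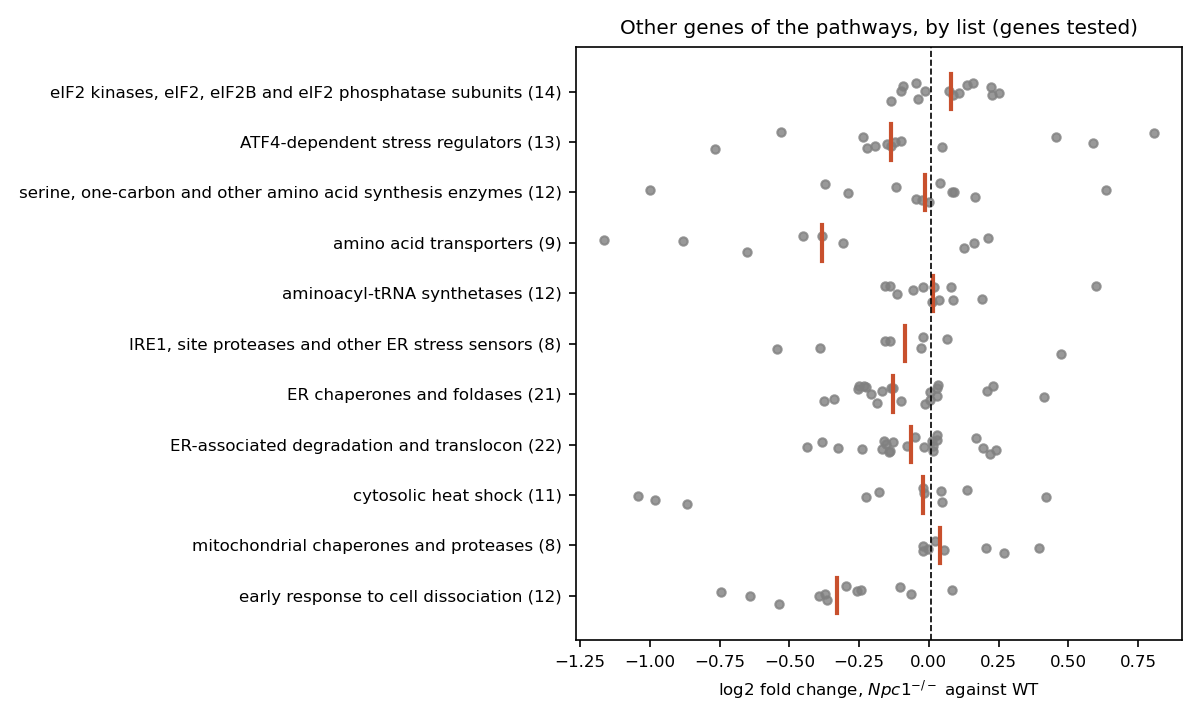
Log2 fold change (x axis, Npc1-/- against WT) of each tested gene (grey) in the 11 lists, with the number tested in parentheses, the list median in red and the median of all genes as a dashed line. Amino acid transporters (median -0.38) and the early response genes (median -0.33) lie mostly below 0, and the other list medians lie between -0.14 and 0.08.

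Upstream of Atf4, none of the 14 eIF2 kinases, eIF2 and eIF2B subunits and eIF2 phosphatase subunits was called, and 1 was higher at an unadjusted p below 0.05. That gene was Eif2b5, the catalytic subunit of eIF2B, whose mutation causes a leukodystrophy in people. It measured 19.6, 18.4 and 19.6 scaled TPM in WT and 23.1, 22.0 and 22.4 in Npc1-/- samples. The groups did not overlap, but the log2 fold change of 0.22 (SE 0.08) missed the threshold (limma adjusted p = 0.156). Eif2s2, the beta subunit of eIF2, had 0.23 (adjusted p = 0.255). In TPM as deposited both values were -0.14, which is 0.19 and 0.18 above the median of all genes on that scale. Eif2s3x, the gamma subunit on the X chromosome, noticed after its values were seen, was 80.3 scaled TPM in Npc1-/- replicate 3, the library with Xist, and 44.7 to 52.4 in the other 5.

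Of the 14 ATF4-dependent stress regulators, 13 were tested, and their median log2 fold change was -0.14. Bbc3, the apoptosis gene PUMA, measured 4.93, 5.21 and 5.58 scaled TPM in WT and 6.44, 8.92 and 6.91 in Npc1-/- samples, without overlap (log2 fold change 0.45, limma adjusted p = 0.116). Stc2, a secreted glycoprotein induced by ER stress, measured 1.39, 0.994 and 1.35 in WT and 0.717, 0.550 and 0.853 in Npc1-/- samples (-0.53, adjusted p = 0.153). The estimates of these stress targets thus pointed in opposite directions. A further pair was picked out after its values were seen. Atf5, a relative of Atf4, measured 21.01, 25.1 and 31.1 scaled TPM in WT and 25.6, 37.4 and 59.3 in Npc1-/- samples, with its maximum, like Ddit3, in Npc1-/- replicate 3 (0.59, adjusted p = 0.297). Atf3 measured 3.03, 1.98 and 2.89 in WT and 1.17, 1.45 and 5.59 in Npc1-/- samples (-0.19, adjusted p = 0.857), and its groups overlapped.

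Amino acid synthesis genes are a classic output of ATF4. Of the 12 enzymes, 0 were called by limma, 1 was higher and 1 lower at an unadjusted p below 0.05, and 1 lay above and 2 below WT without overlap, near the 13.3% and 14.2% of all genes. Pycr1, which makes proline, measured 13.3, 19.2 and 18.0 scaled TPM in WT and 8.04, 6.60 and 9.81 in Npc1-/- samples, a log2 fold change of -1.0 (SE 0.18, limma adjusted p = 0.0547). Aldh1l2, a mitochondrial folate enzyme, measured 3.48, 4.48 and 4.42 in WT and 6.88, 5.91 and 7.22 in Npc1-/- samples, a log2 fold change of 0.63 (SE 0.14, adjusted p = 0.0623). Both lay just outside the threshold, in opposite directions.

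The amino acid transporters had the lowest median of the lists, -0.38 over 9 tested genes of 10. Of these, 4 were lower at an unadjusted p below 0.05 and 0 were higher, beside 11.6% and 10.6% of all genes, and 0 were called. Slc7a5, the light chain of the LAT1 transporter of large neutral amino acids, measured 82.0, 55.5 and 65.6 scaled TPM in WT and 22.3, 34.1 and 33.7 in Npc1-/- samples (-1.17, SE 0.20, limma adjusted p = 0.0526). Slc7a1, a carrier of cationic amino acids, measured 28.5, 18.2 and 15.4 in WT and 10.8, 11.7 and 9.51 in Npc1-/- samples (-0.88, SE 0.22, adjusted p = 0.0784). Slc3a2, the heavy chain that pairs with Slc7a5, was looked at after its values were seen and measured 124.8, 93.2 and 105.4 in WT and 75.0, 78.2 and 81.1 in Npc1-/- samples (-0.45, adjusted p = 0.0875). Brain endothelial cells carry much Slc7a5 and Slc7a1, and all 4 endothelial markers were lower in Npc1-/- samples without overlap, from -0.54 for Cldn5 to -0.997 for Flt1, as were 6 of 6 microglial, 3 of 4 pericyte and 4 of 5 astrocyte markers, where 14.2% of all genes lay below in this way. The fifth astrocyte marker, Gfap, lay above WT without overlap (1.01). None of these markers was listed at 0. The part of these cells in the transporter values was not tested.

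The aminoacyl-tRNA synthetases, which charge tRNAs and are partly driven by ATF4, had a median of 0.02 over 12 genes. Sars, the cytosolic seryl-tRNA synthetase, measured 118, 131 and 134 scaled TPM in WT and 173, 189 and 221 in Npc1-/- samples, with no overlap (0.60, SE 0.12, limma adjusted p = 0.0558). The next was Iars, with 20.05, 20.04 and 19.1 in WT and 23.6, 22.7 and 21.5 in Npc1-/- samples (0.19, adjusted p = 0.228). Sars thus stood apart from a list that otherwise centred near 0. The composite site occurred in the windows of 5 of the 8 synthetase genes that had one, Aars, Gars, Iars, Tars and Yars, and these did not include Sars.

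Among IRE1, the site proteases and other sensors, 8 of 9 genes were tested. Ern1, which encodes IRE1, measured 2.301, 2.45 and 2.91 scaled TPM in WT and 1.62, 1.78 and 2.09 in Npc1-/- samples (-0.39, limma adjusted p = 0.181). Rtcb, the ligase that joins the ends of Xbp1 mRNA after IRE1 cuts it and also acts on tRNAs, measured 47.7, 49.4 and 50.4 in WT and 61.7, 65.3 and 79.7 in Npc1-/- samples (0.47, SE 0.11, adjusted p = 0.0713). Both had groups that did not overlap, again in opposite directions. Edem1, an ER degradation factor and XBP1 target, measured 9.40, 8.32 and 6.40 in WT and 5.36, 6.96 and 5.08 in Npc1-/- samples (-0.44, adjusted p = 0.2001), with overlap. Ssr4, a subunit of the translocon-associated complex, had 0.24 (adjusted p = 0.157), and -0.13 in TPM as deposited, where it was still above the median of all genes.

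Of the 21 ER chaperones and foldases besides Hspa5 and Hsp90b1, 8 had positive and 13 had negative estimates, with a median of -0.13. Fkbp2, a prolyl isomerase of the ER, measured 119, 124 and 140 scaled TPM in WT and 148, 176 and 189 in Npc1-/- samples (0.41, limma adjusted p = 0.107). Dnajc3, an HSP40 that also inhibits PERK, measured 19.8, 16.2 and 14.01 in WT and 13.9, 11.3 and 12.7 in Npc1-/- samples (-0.38, adjusted p = 0.184). Fkbp2 was not lowest in the third library of each genotype as Hspa5 was, and it ranked 7837 of 9149 in likeness to Hspa5. The ER stress response element occurred in the windows of 6 of the 18 list genes that had one, Calr, Canx, Creld2, Dnajc3, Ero1b and Pdia6. In likeness to Hspa5, Pdia6 ranked 3 and Creld2 8, while Calr ranked 101, Dnajc3 504 and Canx 4192. Pdia4 and Hyou1, which ranked 1 and 2, were not among the genes with a match.

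Folding genes outside the ER gave a similar picture. The 11 cytosolic heat shock genes had a median of -0.02, and the lowest was Hspb1, a small heat shock protein, at 60.8, 59.3 and 52.3 scaled TPM in WT and 17.0, 28.1 and 43.4 in Npc1-/- samples (-1.04, SE 0.30, limma adjusted p = 0.102). Hspb1 is also expressed by vascular cells, whose markers were lower in the same libraries, and that part was not tested. Dnaja1 had -0.22 (adjusted p = 0.235). The 8 mitochondrial chaperones and proteases, targets of the mitochondrial unfolded protein response, had a median of 0.04. Their leading genes were Hspe1 (91.5, 117.5 and 110.9 scaled TPM in WT, 122.9, 148.9 and 148.4 in Npc1-/- samples, 0.39, adjusted p = 0.136) and Clpp (0.27, adjusted p = 0.208), and Clpp was -0.10 in TPM as deposited, above the median of all genes on that scale.

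Genes that respond quickly when tissue is dissociated were followed as a check, since cell isolation can itself induce stress genes. Their median log2 fold change was -0.33 over 12 genes, with 11 negative estimates and 0 called. Btg2 measured 11.7, 13.4 and 13.8 scaled TPM in WT and 6.37, 7.10 and 11.7 in Npc1-/- samples (-0.64, limma adjusted p = 0.140). Dusp1 measured 42.8, 62.6 and 58.3 in WT and 20.95, 29.9 and 51.9 in Npc1-/- samples (-0.74, adjusted p = 0.222). Without Npc1-/- replicate 3, Btg2 was called lower (-0.90, limma adjusted p = 0.0294), and leaving out any one library moved Dusp1 to between -1.09 and -0.44. Within the Npc1-/- group, replicate 3 had the highest value for Btg2 and Dusp1 as well as for Ddit3, Atf3 and Atf5. The part of cell isolation in the values of these genes was not tested.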

How the data were processed

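O4+ cells of 3 WT and 3 Npc1-/- mice aged 16 days were each sequenced as 1 library. The authors deposited one gene table of TPM values and one of FPKM values (abundances per library size and transcript length), on mouse GRCm38/mm10. The submitters' processing notes name cutadapt 2.3, FastQC 0.11.8, STAR 2.7.8a, RSEM 1.3.3 and MultiQC 1.7, while the methods name bbduk, STAR and featureCounts, so the counter behind the tables is not certain. TPM was divided by median-of-ratios size factors (18690 genes), and log2(scaled TPM + 0.5) was fitted with limma 3.58.1 (R 4.3.3; trend, two-sided, Benjamini-Hochberg over all 15245 genes with mean TPM of at least 0.5). Genes were called at adjusted p below 0.05 and absolute log2 fold change of at least 0.1. FPKM, deposited with the TPM, served as an alternative and, with it, for estimating depth: 82.7% to 86.1% of low values lay within 0.15 of a whole fragment, where chance gives 30.0%. These counts were approximate, so no count model was run. P-values measure the spread between mice.

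The genes named by rule were the 10 members, Npc1 and the 3 genes most like Atf4 and Hspa5 each. From each list, any called gene or otherwise the 2 with the smallest p were added. Eif2s3x, Atf5, Atf3 and Slc3a2 are marked as chosen after their values were seen. Cell type markers, genes overlapping Ddit3, genes with a motif match and genes given by their likeness rank are named without such a mark. The members and lists were chosen with earlier results of these data known. Coordinates come from GENCODE M21, which held 55227 of the 55492 gene IDs, and promoter windows from RefSeq GRCm38.p6, where 8 of 9 windows ended in an annotated transcript on the same strand. Alternatives were FPKM, 2 other scalings, pseudocounts of 0.1 and 1, no filter or a minimum mean TPM of 5, limma fitted without a trend or robustly, a replicate block, a transcript length curve (lowess span 0.3) and each library left out. The fit was tested on simulated data.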

Additional observations from a re-analysis of the deposited data

How the results depend on the processing

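Over 39 named genes and 17 alternatives, 581 of 627 estimates kept their direction and their side of the threshold, 25 were newly called and 21 changed sign. Members called stayed at 0 except under the replicate block, where 1, Hspa5, was called lower (adjusted p = 0.0429). Pathway list genes called numbered 0, but 16 in TPM as deposited (all lower), 2 with quantile normalization, 3 at a mean TPM of at least 5, 15 with the replicate block and 0 to 5 when a library was left out, the 5 without Npc1-/- replicate 3. All genes called numbered 124, but 924 in TPM as deposited (54 higher, 870 lower), 240 with quantile normalization, 21 with no filter, 447 at a mean TPM of at least 5, 42 without trend, 2011 with the replicate block, and 8 to 486 when a library was left out, the 486 without Npc1-/- replicate 3. Fewer genes or samples enter some of these fits, and otherwise the cause was not tested.

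The deviations of same-numbered samples correlated by 0.414, 0.0602 and 0.326, not all above 0.1. No label says what a shared number means, and the main fit did not pair the samples. All 6 of 6 correlated best with their own number, which is a hint from the data and not from the design.

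TPM as deposited moved the median of all genes to -0.33 and turned Eif2ak3 to -0.18, Eif2b5 to -0.14, Eif2s2 to -0.14, Iars to -0.17, Ssr4 to -0.13, Clpp to -0.10 and Trappc1 to -0.34. Quantile normalization turned Asns to 0.0369, Wdr47 to 0.0353 and Trappc1 to -0.00419. The length curve turned Atf6 to 0.00072, Wdr47 to 0.0267 and Trappc1 to -0.16. With a library left out, Atf4 ranged from -0.0273 to 0.00156, Asns from -0.0811 to 0.0747, Wdr47 from -0.0338 to 0.00203, Fam192a from -0.0343 to 0.0158 and Pdia6 from -0.39 to 0.0236, while Ddit3 ranged from 0.34 (without Npc1-/- replicate 3) to 0.78 (without Npc1-/- replicate 1). Depth limits Trib3 and Chac1, which were not tested.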
